A study of Mus musculus with 2 samples.

Results

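Proliferating Kupffer cells are resident liver macrophages caught while copying or dividing their chromosomes. Here they were 94 cells of 18633 barcodes, 41 in library 2 and 53 in library 1. A cell was taken if 200 genes or more were found in it and mitochondrial transcripts gave no more than 20% of its UMIs (unique molecular identifiers, each standing for 1 captured transcript). Its barcode sequence could not also occur in the other library with more than 5 times its UMIs. The Kupffer genes Clec4f, Cd5l and C1qa had to give at least 1% of its UMIs, and 4 erythroid genes (Klf1, Car1, Hemgn, Slc4a1) and 3 granule genes (Elane, Mpo, Prtn3) at most 1 UMI each in sum. Of the 5088 cells that passed this gate, the 94 had at least 4 UMIs of Mki67, Top2a, Birc5, Cdk1 and Ccnb2 together. They were set against the 4039 gate cells with 0 UMIs of these 5 genes, called 0-UMI cells below, of which 2663 were in library 2 and 1376 in library 1.

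The cells came from a Spta sph/sph mouse and a Spta wt/wt littermate, 1 mouse of each, both male, 8 to 10 weeks old and untreated. The sph/sph genotype is a model of spherocytosis, in which fragile red cells give hemolytic anemia. Livers were digested by collagenase perfusion, and non-parenchymal cells that bound beads carrying an antibody to F4/80, a macrophage surface protein, were run on the 10x Chromium 3′ platform for a target of 10000 cells. The deposited barcodes end in 1 or 2, and which number belongs to which mouse is not stated in the labels, so the genotypes are not attached to the libraries. With 1 mouse per genotype there was no replicate, no test was run, and all intervals are exact 95% intervals that cover counting error only.

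Cells that enter the cell cycle switch on genes in order. E2F factors drive the genes of DNA replication and nucleotide supply in S phase, and later the DREAM complex hands over to B-Myb and Foxm1, which drive the genes of chromosome condensation, spindle and kinetochore in G2 and M phase. Kupffer cells are seeded before birth, are held in their niche by Csf1 signalling, and can renew themselves by dividing in place, without input from blood monocytes. Of the 5 genes used to choose the cells, Mki67 coats mitotic chromosomes, Top2a untangles DNA, Birc5 (survivin) belongs to the chromosomal passenger complex, and Cdk1 and Ccnb2 form the kinase that starts mitosis.

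Promoters are shown for genes on which the results below turn, since mitotic and S phase genes are known for different short promoter elements. Each stretch runs from 250 bases before to 50 bases after the gene start, from RefSeq on build GRCm38.p6. Capitals mark TTTGAA, the core of the cell cycle genes homology region read by DREAM and Foxm1 complexes, CCAAT, the element bound by NF-Y, and the E2F-type words TTTGGCGC and TTTCCCGC, all searched on both strands. In Ube2c, matches to CCAAT on both strands overlap.
Top2a chr11:99024140-99024439 minus strand: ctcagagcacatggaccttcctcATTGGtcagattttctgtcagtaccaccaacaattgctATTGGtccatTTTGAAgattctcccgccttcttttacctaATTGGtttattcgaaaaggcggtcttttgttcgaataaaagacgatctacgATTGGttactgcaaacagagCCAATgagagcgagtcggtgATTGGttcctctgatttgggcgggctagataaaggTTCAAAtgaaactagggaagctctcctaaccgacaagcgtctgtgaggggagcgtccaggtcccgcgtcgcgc
Cdk1 chr10:69352863-69353162 minus strand: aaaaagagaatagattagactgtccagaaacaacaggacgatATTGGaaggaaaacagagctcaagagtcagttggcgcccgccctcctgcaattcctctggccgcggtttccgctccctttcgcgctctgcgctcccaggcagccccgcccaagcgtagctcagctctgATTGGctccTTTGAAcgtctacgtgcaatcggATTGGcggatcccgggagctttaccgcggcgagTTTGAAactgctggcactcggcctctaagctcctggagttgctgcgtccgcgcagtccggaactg
Ccnb2 chr9:70421505-70421804 minus strand: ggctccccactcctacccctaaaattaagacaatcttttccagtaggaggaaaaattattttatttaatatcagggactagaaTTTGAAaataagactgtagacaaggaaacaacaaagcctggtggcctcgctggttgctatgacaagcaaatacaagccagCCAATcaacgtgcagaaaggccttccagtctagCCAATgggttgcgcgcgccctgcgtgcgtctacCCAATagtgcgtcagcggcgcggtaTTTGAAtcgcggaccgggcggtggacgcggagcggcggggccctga
Ube2c chr2:164769679-164769978 plus strand: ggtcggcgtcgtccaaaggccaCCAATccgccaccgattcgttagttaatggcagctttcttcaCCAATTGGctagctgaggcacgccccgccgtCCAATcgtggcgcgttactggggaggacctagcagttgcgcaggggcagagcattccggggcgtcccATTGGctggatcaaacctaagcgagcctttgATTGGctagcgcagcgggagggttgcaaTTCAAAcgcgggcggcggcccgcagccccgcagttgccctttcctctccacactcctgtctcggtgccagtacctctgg
Mcm5 chr8:75109259-75109558 plus strand: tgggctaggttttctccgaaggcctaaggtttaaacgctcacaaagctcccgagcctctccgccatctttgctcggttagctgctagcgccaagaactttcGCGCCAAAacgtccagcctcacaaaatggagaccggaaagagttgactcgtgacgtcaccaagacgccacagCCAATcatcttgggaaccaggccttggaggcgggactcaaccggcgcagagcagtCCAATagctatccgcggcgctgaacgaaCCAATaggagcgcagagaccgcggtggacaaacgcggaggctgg
Pclaf chr9:65890073-65890372 plus strand: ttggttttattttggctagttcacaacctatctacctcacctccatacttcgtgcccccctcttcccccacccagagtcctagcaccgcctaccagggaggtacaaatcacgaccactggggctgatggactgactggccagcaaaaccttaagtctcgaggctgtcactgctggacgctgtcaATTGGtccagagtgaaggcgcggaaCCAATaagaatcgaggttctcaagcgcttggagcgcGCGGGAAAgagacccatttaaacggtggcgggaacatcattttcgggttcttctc

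Top2a, Cdk1 and Ccnb2, which chose the cells, and Ube2c, a mitotic ubiquitin-conjugating enzyme, each held TTTGAA and CCAAT. Mcm5, a subunit of the replicative helicase, and Pclaf, which binds the sliding clamp PCNA, held CCAAT and an E2F-type word and no TTTGAA. Over the spindle, kinetochore and mitotic kinase lists, 78 of 93 genes had a promoter in the table, and some had several gene starts, which gave 85 promoters. TTTGAA occurred in 51 of these 85 promoters (60.0%) and CCAAT in 61 (71.8%), against 15.3% and 37.8% of the 20098 promoters of all genes measured here. Both occurred in 41 of the 85 (48.2%), against 6.13% of all. Over the replication and nucleotide lists, TTTGAA occurred in 8 of 66 promoters (12.1%), close to the share among all genes, and CCAAT in 37 (56.1%). The word TTTGGCGC was in 7 of these 66 (10.6%) and TTTCCCGC in 8 (12.1%), against 0.667% and 1.42% of all promoters. These shares describe letters in a window and say nothing about which factor was bound. The window of Birc5, a gene at chr11:117849251-117855743 on the plus strand, held neither TTTGAA nor CCAAT, and that of Mki67, at chr7:135689784-135716361 on the minus strand, held both. In the 25 promoters of Kupffer identity genes, TTTGAA was in 6 (24.0%) and CCAAT in 5 (20%).

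Library 2 held 9726 barcodes and 56947765 UMIs, and library 1 held 8907 barcodes and 33099802 UMIs. After the gene and mitochondrial limits 6942 and 3488 barcodes remained. The libraries had 955 barcode sequences in common, and the 5-fold rule took away the shallower copy of 44 barcodes in library 2 and 815 in library 1. No barcode sequence was held by proliferating cells of both libraries, although 14 of the 41 in library 2 and 6 of the 53 in library 1 had a sequence that was present under both numbers. The limit on erythroid genes left out 338 cells of library 2, of which 25 had at least 4 UMIs of the 5 genes, and 0 cells of library 1.

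The cells carried the identity of Kupffer cells outside the 3 genes that gated them. Each was thinned to 5000 UMIs, which left 40 cells of library 2 and 43 of library 1 and allows shares of cells to be compared at 1 depth. At that depth all 40 and all 43 had a UMI of Vsig4, a complement receptor of Kupffer cells. Adgre1, which encodes F4/80, was found in 92.5% and 95.3% of them, Csf1r, the Csf1 receptor, in 97.5% and 97.7%, and Clec1b, a lectin of Kupffer cells, in 80% and 93%. Timd4, a phosphatidylserine receptor of long-resident Kupffer cells, was found in 67.5% (50.9% to 81.4%) of proliferating cells and 69.2% of 0-UMI cells in library 2. In library 1 it was found in 76.7% (61.4% to 88.2%) of proliferating cells and 80.4% of 0-UMI cells. In both libraries the share of 0-UMI cells with Timd4 lay within the interval for proliferating cells. Cd163, the hemoglobin-haptoglobin receptor, was found in 15% (5.71% to 29.8%) of proliferating and 27.1% of 0-UMI cells of library 2. In library 1 it was found in 76.7% (61.4% to 88.2%) and 86.5%. Spic, a heme-induced factor, was found in 77.5% of proliferating and 75.8% of 0-UMI cells of library 2. In library 1 the shares were 37.2% and 36.0%. Ly6c2, a defining gene of classical monocytes, Flt3 of dendritic cells and Cd79a of B cells had 0 UMIs in the proliferating cells of both libraries, before thinning as well. At 5000 UMIs these 3 genes were found in only 0.156% to 0.469% of 0-UMI cells, so 0 in so few cells sets nothing apart. Ccr2 of monocytes was found in 0% (library 2) and 9.30% (library 1) of thinned proliferating cells, against 1.04% and 5.95% of 0-UMI cells. For Cx3cr1 of capsule macrophages the shares were 2.5% and 6.98%, against 0.666% and 3.44%.

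The 5 genes that chose the cells are given as a description. In library 2, Top2a had 251 UMIs (430 CPM, the gene's UMIs scaled to a total of 1000000) in 36 of 41 cells and Mki67 141 UMIs (242 CPM) in 35 cells. Birc5 had 127 UMIs (218 CPM) in 35 cells, Cdk1 75 UMIs (128 CPM) in 27 cells and Ccnb2 21 UMIs (36.0 CPM) in 14 cells. In library 1, Top2a had 278 UMIs (523 CPM) in 45 of 53 cells and Mki67 222 UMIs (418 CPM) in 49 cells. Birc5 had 103 UMIs (194 CPM) in 41 cells, Cdk1 57 UMIs (107 CPM) in 23 cells and Ccnb2 46 UMIs (86.6 CPM) in 25 cells. Top2a had the most UMIs of the 5 in both libraries and Ccnb2 the fewest. At least 4 of the 5 genes were found together in 17 and 7 cells of library 2 (4 and 5 genes) and in 18 and 10 cells of library 1. A lone gene made up the whole sum in 0 cells of library 2 and 3 cells of library 1. The sum per cell ran from 4 to 51 UMIs in each library, with medians of 8 in library 2 and 9 in library 1.

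In library 2, 41 of 3426 gate cells reached 4 UMIs, a share of 1.20% (0.860% to 1.62%). In library 1, 53 of 1662 gate cells did so, a share of 3.19% (2.40% to 4.15%). The intervals do not overlap, with the lower share in library 2. The share with at least 1 UMI had the other order, 22.3% (20.9% to 23.7%) in library 2 and 17.2% (15.4% to 19.1%) in library 1, and gate cells were deeper in library 2, with medians of 5973 UMIs there and 5080 in library 1. Thinned to 3000 UMIs, which left out 1169 gate cells of library 2 and 482 of library 1, at least 1 UMI was found in 11.8% (10.5% to 13.2%) and 11.9% (10.1% to 13.8%). At that depth at least 2 UMIs were found in 1.91% (1.38% to 2.56%) of cells in library 2 and 4.15% (3.09% to 5.45%) in library 1, and at least 4 UMIs in 0.576% (0.307% to 0.983%) and 2.2% (1.44% to 3.21%). The libraries thus differed in the share of cells with several UMIs and had overlapping intervals for the share with at least 1. Genotype and library cannot be told apart in this difference, and the part of the erythroid limit in it was not tested. With erythroid sums of up to 5 UMIs allowed, the share in library 2 was 1.45% (54 of 3717) and that in library 1 was 3.19%. With all barcode sequences found in both libraries left out, the shares were 0.902% (27 of 2995) and 2.88% (47 of 1632).

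Free RNA in droplets can give stray UMIs, so endothelial cells, which were rare here and gated by endothelial genes, served as a background. At least 1 UMI of the 5 genes was found in 7 of 64 such cells in library 2 (10.9%, median depth 4625 UMIs) and in 6 of 254 in library 1 (2.36%, median depth 3010 UMIs). Thinned to 3000 UMIs, the shares were 9.09% (5 of 55) and 2.36% (3 of 127). In library 2 the interval of this share, 3.02% to 19.95%, includes the 11.8% of thinned gate cells with at least 1 UMI, so lone UMIs there could not be told from background. In library 1 the interval, 0.490% to 6.75%, lies below the 11.9% of thinned gate cells. The source of lone UMIs was not tested. At least 4 UMIs were found in 0 of 64 and 0 of 254 endothelial cells, which allows shares of up to 4.69% and 1.18% by the limit of 3 counts, with exact upper bounds of 5.60% and 1.44%. Thinned to 3000 UMIs, at least 4 were found in 0 of 55 and 0 of 127, with exact upper bounds of 6.49% and 2.86%. Both bounds lie above the 0.576% and 2.2% of thinned gate cells. At equal depth there were thus too few endothelial cells to set the gate cells apart from background.

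The limit of 4 UMIs cut a graded distribution. Other genes of the same programs were then read in the same cells, which gives no outside support for the limit. The UMIs of 67 S phase genes and 93 G2/M genes (the 5 genes left out) were summed in each cell and scaled to 10000 UMIs. In library 2 the median of this sum was 14.3 in 0-UMI cells, 14.1 in cells with 1 UMI of the 5 genes and 14.4 in cells with 2 UMIs. It was 21.5 in the 27 cells with 3 UMIs, just outside the limit, and 43.0 in the 15 cells with 4 or 5 UMIs, just inside it. It was 87.8 in the 7 cells with 6 to 9 UMIs, 133.9 in the 9 cells with 10 to 19 and 140.9 in the 10 cells with at least 20. The other cell cycle genes thus stood at their base level up to 2 UMIs in library 2 and were higher from 3 UMIs on.

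In library 1 the medians of this sum were 16, 16.7 and 18.0 at 0, 1 and 2 UMIs of the 5 genes. They were 44.9 in the 16 cells with 3 UMIs and 87.2 in the 17 cells with 4 or 5 UMIs. They were 106.6 in the 12 cells with 6 to 9 UMIs, 133.3 in the 13 cells with 10 to 19 and 152.3 in the 11 cells with at least 20. In each library the cells just outside the limit lay between the 0-UMI cells and the cells just inside it. In 0-UMI cells of at least 5000 UMIs, the 95th percentile was 22.4 in library 2 and 26.6 in library 1. At or below it were 1 of 41 proliferating cells in library 2 (2.44%) and 4 of 53 in library 1 (7.55%). Above the median of the proliferating cells were 7 of 2663 0-UMI cells in library 2 and 5 of 1376 in library 1. Of these, 0 had at least 5000 UMIs. The 0-UMI cells are therefore not known to be free of dividing cells.

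**Figure D1:**
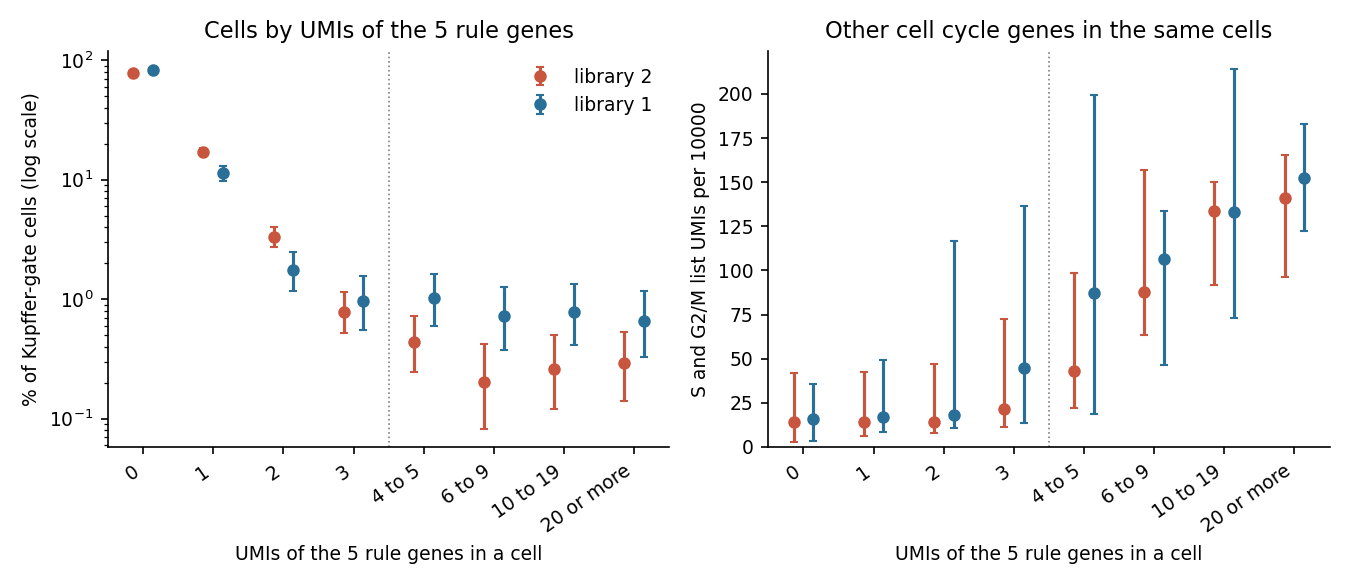
Left, percent of Kupffer-gate cells (log axis) by the summed UMIs of Mki67, Top2a, Birc5, Cdk1 and Ccnb2 in a cell, with exact 95% intervals; right, UMIs of S and G2/M genes other than these 5, per 10000 UMIs, as medians over cells with bars from the 5th to the 95th percentile, for library 2 and library 1, with the limit of 4 UMIs dotted. Medians stayed at 14.1 to 18.0 up to 2 UMIs and reached 140.9 in library 2 and 152.3 in library 1 at 20 UMIs or more.

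Proliferating cells were large libraries of RNA. Their total UMIs ran from 2155 to 31031 in library 2 (median 12869) and from 667 to 29011 in library 1 (median 9200), against medians of 5123 and 4615 in 0-UMI cells. They held a median of 3479 and 3309 genes, against 1987 and 2072.5 in 0-UMI cells. Since a limit of 4 UMIs is met more easily by a deep cell, depth was in part chosen by the rule. Mitochondrial UMIs had medians of 10.1% and 12.5% in proliferating cells, against 12.5% and 14.1% in 0-UMI cells. Droplets with more than 1 cell were not removed, and their part in the depth was not tested.

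S phase and G2/M programs were both present, some cells having more UMIs of the first and others more of the second. S phase genes had a median of 43.9 UMIs per 10000 in proliferating cells of library 2 (range 7.57 to 97.4) and 45.8 in library 1 (7.90 to 149.9), against 9.09 and 10.4 in 0-UMI cells. G2/M genes had a median of 57.0 in proliferating cells of library 2 (4.11 to 135) and 56.2 in library 1 (4.58 to 196), against 4.99 and 5.09 in 0-UMI cells. S phase UMIs outnumbered G2/M UMIs in 16 of 41 cells of library 2 (39.0%, 24.2% to 55.5%) and 22 of 53 cells of library 1 (41.5%, 28.1% to 55.9%). G2/M UMIs were more numerous in 25 and 30 cells, and 1 cell of library 1 had equal numbers. The split differed by less than its counting interval between libraries. Near the border, with the 2 sums within 1.5-fold of each other, were 13 cells of library 2 and 14 of library 1. Thinned to 5000 UMIs, 15 of 40 cells (37.5%) and 20 of 43 (46.5%) had more S phase UMIs.

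Cells with few UMIs of the 5 genes leaned to S phase. Among those with 4 or 5, S phase UMIs led in 9 of 15 cells of library 2 and 10 of 17 of library 1. Among those with at least 20, they led in 2 of 10 and 3 of 11. At these numbers the counting intervals of the shares overlap, 32.3% to 83.7% against 2.52% to 55.6% in library 2 and 32.9% to 81.6% against 6.02% to 61.0% in library 1. The 5 genes are themselves highest in G2 and M phase, so the choice of genes and of the limit bears on this order.

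**Figure D2:**
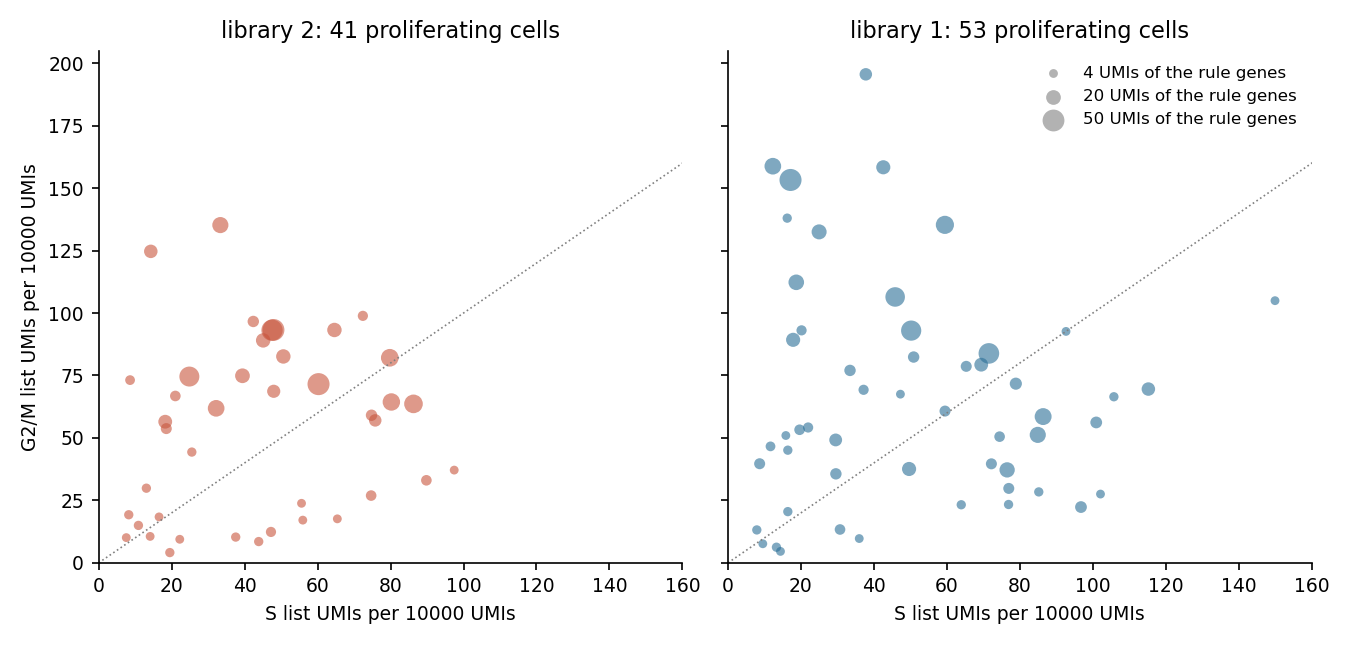
Each proliferating cell by its S phase UMIs per 10000 (horizontal axis) and its G2/M UMIs per 10000 (vertical axis), with library 2 on the left and library 1 on the right; the size of a point follows the summed UMIs of the 5 genes that chose the cells, and the dotted line marks equal values. Cells lie on both sides of the line, 16 of 41 with more S phase UMIs in library 2 and 22 of 53 in library 1.

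UMIs were then summed over the cells of each kind and library and scaled to CPM. A gene counted as higher or lower when it differed at least 2-fold. At least 50 CPM and 30 UMIs in proliferating or 0-UMI cells of each library were found for 2933 genes. Of these, 128 (4.36%) were at least 2-fold higher in proliferating than in 0-UMI cells in both libraries and 1 (0.0341%) was at least 2-fold lower in both. Some of the 128, such as Iqgap3 with 34 and 30 UMIs against 4 and 2, met that minimum only through the proliferating cells. The cells were also chosen by cell cycle genes, so the 2 counts are a description. Without the barcodes whose sequence occurs in both libraries, 54 genes were higher in both, all of them among the 128, and 2 were lower. The median log2 ratio over the 2933 genes was 0.02 in library 2 and −0.02 in library 1. Taken singly, library 2 had 4.98% of the 2933 genes higher and 0.75% lower, and library 1 had 4.94% higher and 0.546% lower. Of the 128 genes, 77 stood on the cell cycle lists used here and 51 on no list. For lists the minimum was 10 CPM, at which 8.38% of 8131 genes were higher and 3.7% lower in library 2, and 7.27% of 8705 genes were higher and 4.23% lower in library 1. Most replication and mitotic genes met that minimum through the proliferating cells, so their counts and medians describe them and support nothing further.

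Replication genes were higher as a group. Of 46 genes of replication licensing and the fork, 41 met the minimum in library 2 and 40 of these were higher, with a median log2 ratio of 2.75, and 45 met it in library 1, of which 43 were higher, with a median of 2.52. Only 15 and 18 of them had at least 10 CPM in 0-UMI cells. Summed over the list, their level was 2874.5 CPM in proliferating and 476 CPM in 0-UMI cells of library 2, and 3258 and 608 CPM in those of library 1. Mcm5 had 194 CPM in proliferating cells and 10.7 CPM in 0-UMI cells of library 2, a log2 ratio of 4.18 (3.83 to 4.53). It had 230 and 11.5 CPM in library 1, a log2 ratio of 4.32 (3.91 to 4.74). Pcna, the sliding clamp, had 188 against 37.9 CPM in library 2 and 217 against 41.0 CPM in library 1, log2 ratios of 2.31 and 2.40. Uhrf1, which guides maintenance DNA methylation at the fork, had larger ratios, 5.24 and 5.99. Rfc1, the large clamp loader subunit, stayed within 2-fold in both libraries, at 0.93 and 0.87.

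Pclaf was nearly absent from 0-UMI cells. It had 543 CPM (485 to 606) in proliferating and 6.52 CPM in 0-UMI cells of library 2, and 491.5 CPM (434 to 555) and 4.01 CPM in those of library 1. The log2 ratios were 6.38 (6.06 to 6.71) and 6.94 (6.38 to 7.55). Dtl, the substrate receptor that removes Cdt1 in S phase, had log2 ratios of 5.44 and 6.01. Rrm2, the regulated subunit of ribonucleotide reductase, had 139 against 3.35 CPM in library 2 and 168 against 1.80 CPM in library 1. Of 21 genes of nucleotide supply, 17 of 21 at the minimum were higher in library 2 and 13 of 20 in library 1, with median log2 ratios of 1.52 and 1.34. The deoxynucleotide enzymes Tyms (4.73 and 3.85) and Tk1 (3.13 and 2.93) stood above the purine enzyme Paics (1.12 and 1.04).

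Spindle, kinetochore and checkpoint genes had the largest median ratios of the lists. All 29 spindle and kinesin genes at the minimum were higher in library 2 and all 31 in library 1, with medians of 4.94 and 5.79, and 3 of them in each library had at least 10 CPM in 0-UMI cells. All 28 and all 29 kinetochore genes were higher, with medians of 4.52 and 4.77. Of 32 mitotic kinases, cyclins and checkpoint genes, 31 were higher in each library, with medians of 4.77 and 4.89, the exception in both being Fzr1 (0.88 and 0.93), the G1 activator of the anaphase-promoting complex. The spindle list summed to 1770 CPM in proliferating and 117 CPM in 0-UMI cells of library 2, and to 2384 and 154 CPM in those of library 1. Set against 41 and 52 0-UMI cells of like depth, its medians were 2.80 and 3.49. Counts of 0 were replaced by 3 UMIs, which caps the ratios of rare genes in so small a set. Kif11, for one, had 1.95 and 0.967 CPM in all 0-UMI cells of library 2 and library 1. The part of depth in these lower medians was not separated from that cap.

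Iqgap3, a scaffold protein of dividing cells, had the highest ratio by the rule for named genes, which ranks by the smaller ratio of the libraries. It had 58.2 CPM (34 UMIs) in proliferating and 0.244 CPM (4 UMIs) in 0-UMI cells of library 2, a log2 ratio of 7.90 (6.41 to 9.86). It had 56.5 CPM (30 UMIs) and 0.276 CPM (2 UMIs) in those of library 1, a log2 ratio of 7.68 (5.70 to 10.79). Its gene lies at chr3:88081971-88121048 on the plus strand of GRCm38. Racgap1, which with a kinesin organizes the central spindle, had 128 against 1.46 CPM in library 2 and 130 against 2.35 CPM in library 1. Plk1, the polo-like kinase, had 70.2 against 1.16 CPM and 82.9 against 0.553 CPM. Nusap1, a microtubule bundling protein, had log2 ratios of 5.23 (4.73 to 5.74) and 8.75 (7.16 to 11.06), intervals that do not overlap. In that gene the proliferating cells were alike, with 137 CPM in library 2 and 179 CPM in library 1. The 0-UMI cells differed, with 3.66 CPM (60 UMIs) in library 2 and 0.415 CPM (3 UMIs) in library 1. The ratio of 8.75 thus rests on 3 UMIs in 0-UMI cells. Ube2c had the same form, 355 CPM against 21.7 CPM in library 2 and 373 CPM against 3.87 CPM in library 1.

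Chromatin and tubulin genes were higher with smaller ratios than spindle genes. H2afz, a histone H2A variant, had 1170 CPM in proliferating and 250 CPM in 0-UMI cells of library 2, and 942 and 241 CPM in those of library 1. Hmgb2, a DNA-bending protein, had 334 against 42.5 CPM in library 2 and 849 against 79.7 CPM in library 1. Tubb5, a beta-tubulin, had 1105 against 207 CPM and 1373 against 177 CPM. Stmn1, which destabilizes microtubules, had the largest ratio of the tubulin list, at 644 against 16.4 CPM in library 2 and 682 against 7.74 CPM in library 1. Of the condensin, cohesin and chromosome structure genes, 20 of 25 and 23 of 25 were higher, with median log2 ratios of 2.01 and 1.97. Of the tubulin and microtubule genes, 7 of 10 and 6 of 9 were higher, with medians of 1.88 and 2.22.

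**Figure D3:**
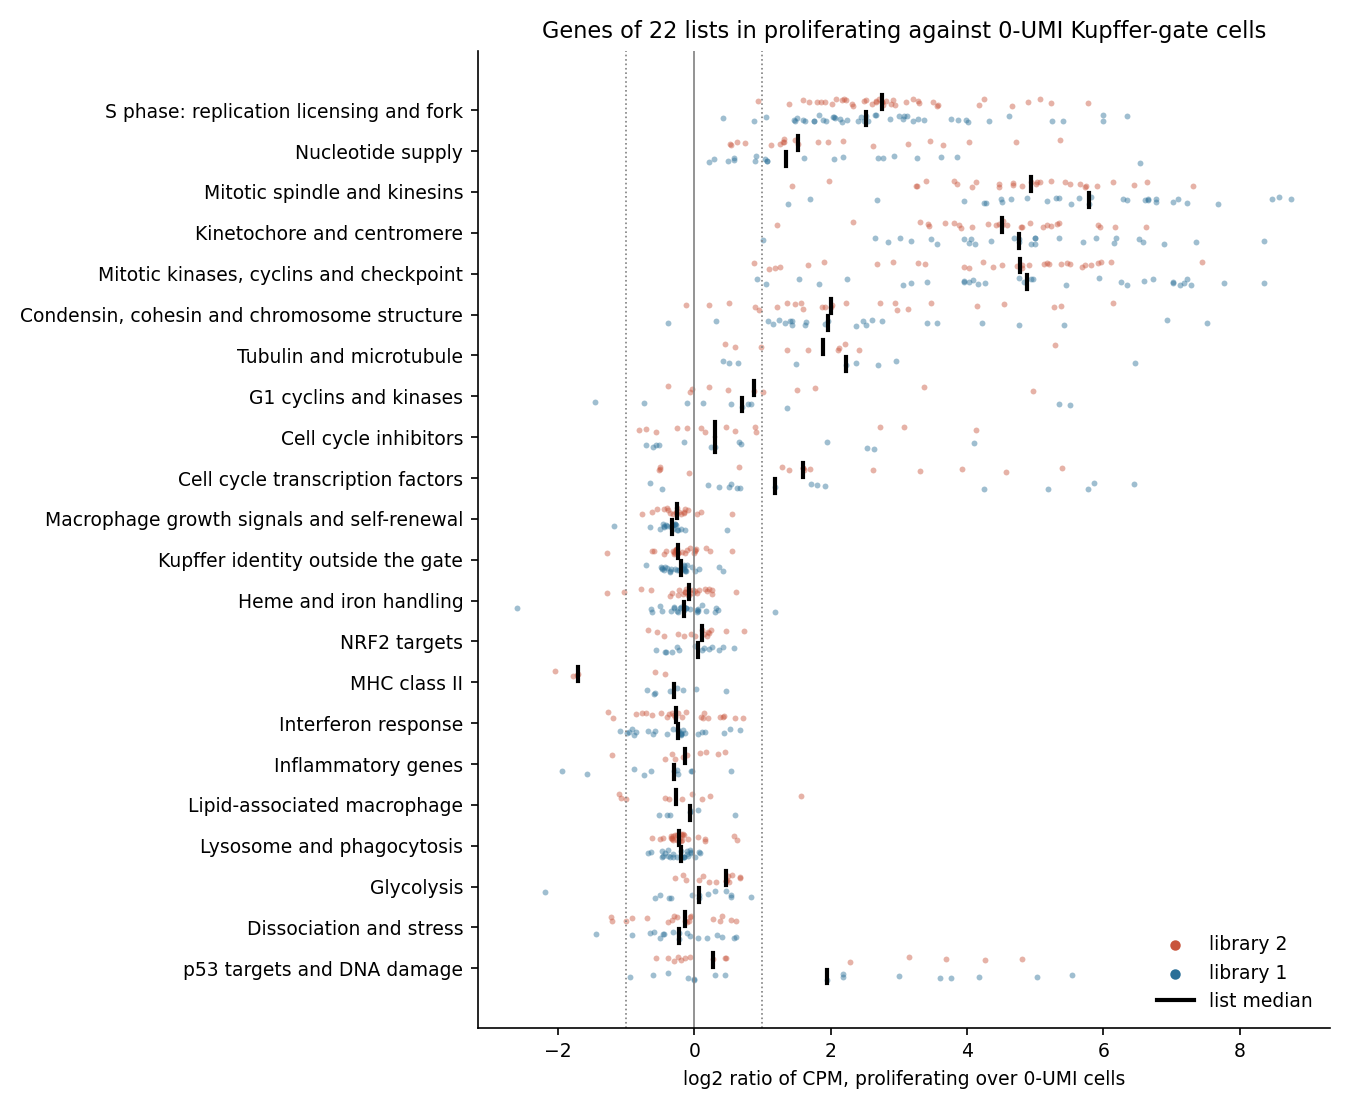
Log2 ratio of CPM, proliferating over 0-UMI cells (horizontal axis), for genes of 22 lists at a minimum of 10 CPM, with library 2 above library 1 in each list; dots are genes, black bars are medians and the dotted lines mark 2-fold. Spindle genes have medians of 4.94 and 5.79, and Kupffer identity genes of −0.24 and −0.19.

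The D-type cyclins, which carry growth signals into G1, did not stand with the other cyclins. Ccnd1 had 82.2 CPM in proliferating and 86.2 CPM in 0-UMI cells of library 2, a log2 ratio of −0.07 (−0.52 to 0.35). It had 147 and 159 CPM in those of library 1, a log2 ratio of −0.11 (−0.46 to 0.22). Ccnd3 had 97.6 against 53 CPM in library 2 and 75.3 against 52.0 CPM in library 1, and its kinase Cdk4 80.5 against 40.2 CPM and 65.9 against 37.0 CPM. The E-type cyclin Ccne2, which acts at S phase entry, had 34.3 against 1.10 CPM in library 2 and 33.9 against 0.829 CPM in library 1, log2 ratios of 4.96 and 5.35. In all, 5 of 11 G1 cyclins and kinases were higher in library 2 and 3 of 11 in library 1, where Ccnd2 was lower (−1.46).

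Among inhibitors of the cycle, 3 of 14 at the minimum were higher in library 2 and 4 of 13 in library 1. Cdkn2c (p18) had 34.3 CPM in proliferating and 1.95 CPM in 0-UMI cells of library 2 and 64.0 and 3.73 CPM in those of library 1. Its log2 ratios were 4.13 (3.25 to 4.99) and 4.10 (3.33 to 4.89). Cdkn2d (p19) had log2 ratios of 3.08 and 2.64, and the pocket protein gene Rbl1 (p107) 2.72 and 2.54. Cdkn1a (p21), a p53 target, had 73.7 against 53.2 CPM in library 2 and 45.2 against 11.7 CPM in library 1, log2 ratios of 0.47 (−0.01 to 0.91) and 1.94 (1.23 to 2.61). Cdkn1b (p27) stood near 0 in both, at 0.15 and −0.15. Thus 2 INK4 family inhibitors were higher beside the cyclins, and p27 was not.

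Of the factors that drive the program, E2f1 had 77.1 CPM in proliferating and 25.4 CPM in 0-UMI cells of library 2 and 79.1 and 34.8 CPM in those of library 1. Foxm1 had 27.4 against 1.16 CPM in library 2 and 60.3 against 0.691 CPM in library 1, log2 ratios of 4.57 (3.51 to 5.6) and 6.45 (5.08 to 8.16). In all, 11 of 16 factors were higher in library 2 and 9 of 17 in library 1. Myc was not among them, with 2 UMIs (3.43 CPM) in proliferating cells against 8.72 CPM in 0-UMI cells of library 2 and 11 UMIs (20.7 CPM) against 18.1 CPM in library 1. On the list of p53 targets and DNA damage, 5 of 15 genes were higher in library 2 and 9 of 17 in library 1. Among the repair genes on that list, Brca1 had log2 ratios of 4.81 and 5.53, Fancd2 4.27 and 2.18 and Brca2 3.14 and 3.0.

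Macrophage identity genes stayed within 2-fold, with few exceptions. Of 26 Kupffer identity genes outside the gate, all met the minimum, none was higher, and 1 was lower in library 2 and 0 in library 1. Their median log2 ratios were −0.24 and −0.19, against medians of 0.05 and 0.02 over all genes at that minimum. Vsig4 had 1775 CPM in proliferating and 2160 CPM in 0-UMI cells of library 2 and 2002 and 2687 CPM in those of library 1, log2 ratios of −0.28 (−0.37 to −0.19) and −0.42 (−0.51 to −0.34). Timd4 had 255 against 252 CPM in library 2 and 301 against 366 CPM in library 1. The lower gene was Cd163, the hemoglobin-haptoglobin receptor, with 53.1 against 129 CPM in library 2 (−1.28, −1.84 to −0.77), and in library 1 with 505 against 704 CPM (−0.48, −0.66 to −0.30). The gate genes themselves, whose share the rule bounded from below, had medians of 1.32% and 1.40% of UMIs in proliferating cells and 1.56% and 1.62% in 0-UMI cells.

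Genes of macrophage growth control gave no higher member in either library. Of 27 such genes, 20 met the minimum in each library, and the 1 at least 2-fold lower was Bhlhe40 in library 1 (−1.18). Csf1r had 922 CPM in proliferating and 1213 CPM in 0-UMI cells of library 2 and 1111 and 1514 CPM in those of library 1, log2 ratios of −0.40 (−0.52 to −0.27) and −0.45 (−0.57 to −0.33). Maf, a transcription factor of differentiated macrophages, had 937 against 877 CPM in library 2 and 1446 against 1798 CPM in library 1. Klf2, which is tied to quiescence, had log2 ratios of −0.51 (−0.77 to −0.27) and −0.65 (−0.87 to −0.44). The differences of Csf1r, Maf and Klf2 were under 2-fold.

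Iron handling, the task of these cells in red cell turnover, stayed within 2-fold in proliferating cells for most genes, with Hmox1 and Slc40a1 lower in library 1. Hmox1, heme oxygenase, had 7352 CPM in proliferating and 8228 CPM in 0-UMI cells of library 2 and 667 and 1039 CPM in those of library 1. Its log2 ratios were −0.16 (−0.21 to −0.12) and −0.64 (−0.80 to −0.49), the second from −0.93 to −0.29 over the settings. Slc40a1, the iron exporter ferroportin, had 3073 against 3056 CPM in library 2 and 2770 against 3501 CPM in library 1. Its log2 ratios were 0.01 (−0.06 to 0.08) and −0.34 (−0.41 to −0.26). Spic, the heme-induced factor of red pulp macrophages, had 310 against 342 CPM in library 2 and 92.3 against 102 CPM in library 1. Of 28 heme and iron genes, 26 met the minimum in library 2, where 0 were higher and 2 lower, and 27 in library 1, where 1 was higher and 1 lower. Cd163 (−1.28) was among the 2 in library 2. The lysosome and phagocytosis list had all 26 genes within 2-fold in each library. So did all 15 and all 14 NRF2 targets at the minimum, with median log2 ratios of 0.12 and 0.06.

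Of the other macrophage programs, glycolysis genes had median log2 ratios of 0.47 in library 2 and 0.07 in library 1, interferon response genes −0.26 and −0.24, inflammatory genes −0.14 and −0.30, and dissociation and stress genes −0.13 and −0.23. In these 4 lists no gene was at least 2-fold higher in either library, and from 0 to 2 genes per list and library were at least 2-fold lower, among them Il1b in library 2 (−1.20) and Cxcl9 in library 1 (−1.94). Of 10 and 7 lipid-associated macrophage genes at the minimum, 1 was higher and 3 were lower in library 2 and 0 were either in library 1; the higher one was Gpnmb, with 24.0 CPM in proliferating and 8.11 CPM in 0-UMI cells of library 2 and 0 UMIs in both kinds in library 1.

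The gene lower at least 2-fold in both libraries was Pla2g7, a secreted phospholipase of macrophages at chr17:43568098-43612201 on the plus strand. It had 68.5 CPM (40 UMIs) in proliferating and 150 CPM in 0-UMI cells of library 2, a log2 ratio of −1.13 (−1.62 to −0.68). It had 84.7 CPM (45 UMIs) and 172 CPM in those of library 1, a log2 ratio of −1.02 (−1.49 to −0.60). The call was kept under 11 of 18 alternatives and lost under 7. The ratio was −0.48 in library 2 at a minimum of 3 UMIs and −0.59 in library 1 at a mitochondrial limit of 40%, the values nearest 0, and in both libraries it was below 0 under every alternative for which it was computed. Next in the order came Slfn5, an interferon-induced gene (−1.14 and −0.96), Cd14, the endotoxin co-receptor (−0.93 and −1.0), and Fam43a (−1.11 and −0.83). Apoe, a lipoprotein component, had 3065 against 6480 CPM in library 2 (−1.08, −1.15 to −1.01) and 5094 against 7298 CPM in library 1 (−0.52, −0.58 to −0.46).

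MHC class II genes, which present antigen to T cells, were lower in proliferating cells of library 2. Of 6 class II genes at the minimum there, 4 were at least 2-fold lower, with a median log2 ratio of −1.71, and in library 1 none of 8 was, with a median of −0.30. Cd74, the invariant chain, had 125 CPM (98.0 to 157) in proliferating and 513 CPM (502 to 524) in 0-UMI cells of library 2, a log2 ratio of −2.04 (−2.39 to −1.70). It had 3610 CPM and 5864 CPM in those of library 1, a log2 ratio of −0.70 (−0.77 to −0.63). At 5000 UMIs per cell, Cd74 was found in 20% (9.05% to 35.6%) of proliferating and 52.8% (50.1% to 55.5%) of 0-UMI cells of library 2, and in 100% of both kinds in library 1. In library 2 the 14 proliferating cells whose barcode sequence also occurred in library 1 had 187 CPM of Cd74 (141 to 242) and the other 27 had 59.9 CPM (34.9 to 95.9), and the part of shared barcodes in this level was not tested.

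Markers of most other cell types had summed levels in proliferating cells near or under those in 0-UMI cells, the monocyte list being higher. Monocyte markers summed to 70.2 CPM in proliferating and 53.4 CPM in 0-UMI cells of library 2 and to 269 and 188 CPM in those of library 1, with 4 of 7 genes at 0 UMIs in proliferating cells of each library and Ccr2 giving 92.3 of the 269 CPM. T and NK markers had 0 UMIs in them for 7 of 7 genes. Endothelial markers summed to 236 against 194 CPM in library 2 and 234 against 370 CPM in library 1, and hepatocyte markers to 1114 against 1485 CPM and 1281 against 1555 CPM. Dendritic markers summed to 20.6 against 20.1 CPM and 35.8 against 35.5 CPM, B cell markers to 41.1 against 40.8 CPM and 18.8 against 30.1 CPM, and stellate cell markers to 103 against 148 CPM and 64.0 against 124 CPM. Plasma cell, megakaryocyte and granulocyte lists stayed under 50 CPM in proliferating cells of both libraries. The list of capsule or class II macrophage markers, Cd207 among them, summed to 317 against 334 CPM in library 2 and 813 against 870 CPM in library 1. Cd207 gave 407 of the 813 CPM. At 5000 UMIs it was found in 74.4% of proliferating and 79.0% of 0-UMI cells of library 1, so there it marks no separate cell type.

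Erythroid genes outside the gate, nearly all globin, summed to 17769 CPM in proliferating and 31418 CPM in 0-UMI cells of library 2, and to 58.4 and 290 CPM in those of library 1. Globin transcripts made up 2.18% of UMIs in proliferating and 3.84% in 0-UMI cells of library 2. Of the 12718 globin UMIs in its 41 proliferating cells, 4751 and 2727 came from 2 cells (58.8% together), and the median share per cell was 0.522% in proliferating and 1.28% in 0-UMI cells. In library 1 the proliferating cells had 6 globin UMIs in all, against 2197 in 0-UMI cells, of which 2 cells gave 59.4%. The log2 ratio of Hbb-bs in library 1, −4.08, was 1.38 at a minimum of 3 UMIs of the 5 genes, so no direction is given there. The part of attached or engulfed red cells in the globin of library 2 was not tested.

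Ccr2, the chemokine receptor of monocytes, was carried in library 1 by few cells. It had 49 UMIs in its 53 proliferating cells, of which 46 lay in 4 cells with at least 3 UMIs each, and those 4 cells also had 1 to 13 UMIs of Timd4. Its level was 92.3 CPM in proliferating and 30.8 CPM in 0-UMI cells of library 1, a log2 ratio of 1.58, which was −1.96 without the deepest 5% of gate cells and −2.26 at a mitochondrial limit of 10%. In library 2 it had 3 UMIs in 41 cells. Of the 49 UMIs in library 1, 37 came from the 6 cells whose barcode sequence also occurred in library 2.

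Between libraries, proliferating cells differed mostly in the direction in which the 0-UMI cells differed. Of 3532 genes at 50 CPM and 30 UMIs, 162 (4.59%) were at least 2-fold higher in library 2 than in library 1 and 364 (10.3%) at least 2-fold lower, with a median log2 ratio of −0.19. Of these 526 genes, 520 had the same direction in 0-UMI cells and 243 were also at least 2-fold apart there. The same counts were not made over all 3532 genes, across which the Spearman correlation of the ratios was 0.81. The libraries thus differed in the same direction in proliferating and 0-UMI cells for most of these genes, though often by less than 2-fold in the 0-UMI cells. Genotype and library cannot be told apart here.

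Marco, a scavenger receptor at chr1:120474538-120505024 on the minus strand, had the largest difference among genes of the Kupffer list. It had 14724 CPM in library 2 and 597 CPM in library 1 in proliferating cells, a log2 ratio of 4.62 (4.46 to 4.79), beside 4.83 in 0-UMI cells. All 41 proliferating cells of library 2 had between 13 and 552 UMIs of Marco, while those of library 1 had between 0 and 45 with a median of 2. Within library 1 its log2 ratio of proliferating over 0-UMI cells was 0.37, but −0.69 with shallow shared barcodes kept and −1.08 at a mitochondrial limit of 10%. Hmox1 had a library ratio of 3.46 (3.31 to 3.62) in proliferating cells, beside 2.99 in 0-UMI cells, and Fth1, the ferritin heavy chain, 2.84 (2.77 to 2.91), beside 2.59. Spic had 1.75 beside 1.74. Slc40a1 and Timd4 stood near 0, at 0.15 (0.05 to 0.25) and −0.24 (−0.57 to 0.09).

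In the other direction, all 8 class II genes at the minimum were at least 2-fold lower in library 2, with a median of −3.89 in proliferating cells and −3.43 in 0-UMI cells. H2-Aa, a class II alpha chain at chr17:34282744-34287823 on the minus strand, had 37.7 CPM in library 2 and 2231 CPM in library 1 in proliferating cells, a log2 ratio of −5.89 (−6.57 to −5.28), beside −4.54 in 0-UMI cells. Cd74 had −4.85, beside −3.51, and Cd163 −3.25, beside −2.45. Cd207, a lectin found on some liver macrophages, had −4.72, beside −3.63. For these 4 genes the intervals of the ratio in proliferating cells and in 0-UMI cells did not overlap, and no test of that difference was run. These intervals leave out differences between cells. In library 2, single proliferating cells gave 18, 15 and 12 of the 73 UMIs of Cd74. Cd207 rested on 9 UMIs there, and its intervals only just parted, with an upper end of −3.770 against a lower end of −3.761. Lipid-associated macrophage genes were higher in library 2 for 7 of 10 genes, with a median of 1.46 beside 1.65 in 0-UMI cells, glycolysis genes for 10 of 15, with a median of 1.16 beside 1.40, and NRF2 targets for 7 of 15, with a median of 0.94 beside 0.70.

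Most genes of the cell cycle lists were within 2-fold between libraries in proliferating cells. Of 31 spindle genes, 0 were higher in library 2 and 5 were lower, with a median of 0.23 in 0-UMI cells. Of 18 cell cycle transcription factors, with a median of −0.41, 0 were higher and 4 lower. Of 45 replication genes, 1 was higher and 4 were lower. Over all 8666 genes at the list minimum, 567 were higher and 1473 lower. Replication genes had a median log2 ratio of −0.14 in proliferating cells, kinetochore genes −0.04, mitotic kinases −0.27 and spindle genes −0.60, beside −0.19 over all genes at the higher minimum and −0.25 at the list minimum. Single genes differed more. Hmgb2 had 334 CPM in library 2 and 849 CPM in library 1 (−1.35, −1.60 to −1.10), beside −0.91 in 0-UMI cells. The replication gene Lig1 had −1.09 (−1.57 to −0.62), beside −0.60, and Foxm1 −1.14 (−2.10 to −0.23), beside 0.75. Cdt1, a licensing factor, had 80.5 and 149 CPM (−0.89, −1.44 to −0.35), which is under 2-fold, beside −0.30.

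**Figure D4:**
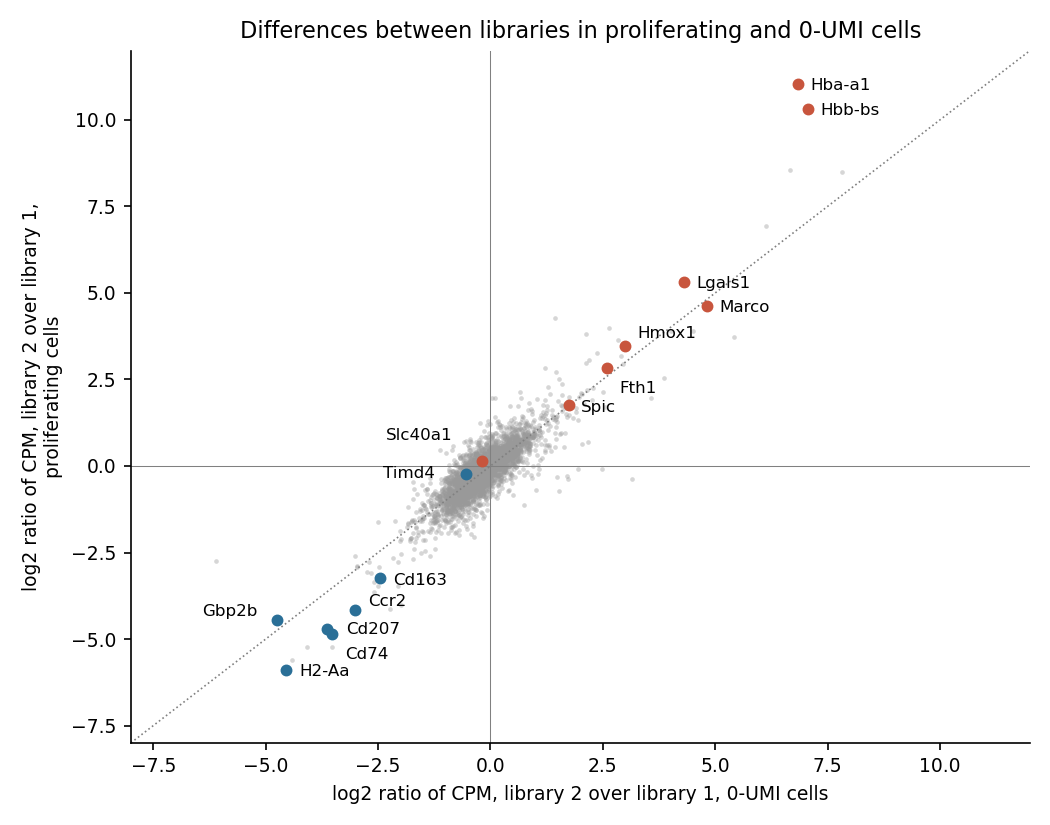
Log2 ratio of CPM, library 2 over library 1, in proliferating cells (vertical axis) and in 0-UMI cells (horizontal axis), for 3532 genes; the dotted line marks equal ratios, with named genes in red where higher and in blue where lower in library 2 in proliferating cells. Of the 526 genes at least 2-fold apart in proliferating cells, 520 have the same direction in 0-UMI cells. Marco lies near the line, at 4.62 beside 4.83 in 0-UMI cells, and H2-Aa below it, at −5.89 beside −4.54. The globin genes are drawn above it, but rest on few UMIs in proliferating cells of library 1 (4 of Hbb-bs, 2 of Hba-a1). Over the settings the ratio of Hbb-bs in proliferating cells ran from 5.01 to 11.1, beside 7.07 in 0-UMI cells. Genes such as Nusap1 (−0.38 beside 3.14, with 3 UMIs in 0-UMI cells of library 1) lie far from the line.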

How the data were processed

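Single-cell RNA of F4/80-enriched liver cells of 2 mice was used as UMI counts per gene and barcode, deposited by the authors as whole numbers in 1 matrix for both libraries. Cell Ranger 3.0.1, R 3.6.1 and the build GRCm38.p5 are named in the processing notes of the submitters. For the annotation release and for any subsampling between libraries, the sources used here give nothing. All columns of the matrix were used (0 left out).

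Cells were gated by the limits in the report, and no doublets were removed. UMIs were summed per kind of cell and library and divided by the total over all genes to give CPM (scaled to 1000000). In ratios, 3 UMIs stood in for a count of 0. Intervals are exact (Clopper-Pearson for shares, Poisson for CPM, conditional for ratios) at 95%, and since each group was 1 library, no test was run. The proliferating cells, the gene lists and the alternatives were chosen with earlier results of these data known.

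The 22 program lists and 12 cell type lists could be named in full, except 1 gene that is counted in its list and not reported here. Outside them, named genes were the 15 highest and 15 lowest by the smaller ratio of the libraries, with at least 50 CPM and 30 UMIs, and the 12 highest and 12 lowest between libraries. Before the counts over 2933 genes, the 15 genes of the gate were left out. Cells were thinned by drawing UMIs without replacement with a fixed seed. The computations were tested on simulated data. Promoters came from RefSeq (GRCm38.p6) and gene positions from GENCODE on GRCm38. Computations ran in python 3.11.15 with pandas 2.3.3, scipy 1.17.1, numpy 2.4.6 and matplotlib 3.10.9. Alternatives changed the limits on UMIs, mitochondrial share, Kupffer share, erythroid genes, depth, shared barcodes and scaling.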

Additional observations from a re-analysis of the deposited data

Results flagged for a closer look

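Barcodes left out of the gate also held proliferating Kupffer cells by the same limit. Among barcodes over 20% mitochondrial UMIs that met the rest of the gate, 5 of 925 in library 2 (0.541%, 0.176% to 1.26%) and 24 of 1922 in library 1 (1.25%, 0.802% to 1.85%) had at least 4 UMIs of the 5 genes. Their medians of S and G2/M UMIs per 10000 outside these genes were 53.1 and 83.9, between those of 0-UMI cells and of proliferating cells. In library 2, 25 of the 338 cells left out for erythroid RNA reached 4 UMIs, and the cell of origin of these UMIs was not tested. These signals lie in barcodes that no comparison above used.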

How the results depend on the processing

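Under other settings, 140 values of the main results stayed within their counting error or within 1.5 times the count, and 38 did not. The shares of proliferating cells in library 2 and library 1 (1.20% and 3.19%) were 1.98% and 4.15% at a minimum of 3 UMIs, 0.759% and 2.17% at 6, and 0.555% and 1.44% at 10. They were 2.54% and 6.31% in cells of at least 7000 UMIs, 0% and 0% with Kupffer genes at 2% of UMIs, 2.07% in library 2 at 10% mitochondrial UMIs and 2.21% in library 1 at 40%. Thinned to 3000 UMIs, they were 11.8% and 11.9% at a minimum of 1, 1.91% and 4.15% at 2, and 0.576% and 2.2% at 4. At 10% mitochondrial UMIs the shares rest on 20 of 964 cells in library 2 and 11 of 309 in library 1, and at 40% on 46 of 4320 and 74 of 3345. At each of these limits the share of the other library stayed within its main interval. Genes higher in both libraries (128) numbered 37 at 10% mitochondrial UMIs, 58 without the deepest 5% of cells, 54 without shared barcode sequences and 293 at a minimum of 10 CPM and 10 UMIs. The first 3 leave fewer UMIs, and the last tests more genes. Genes lower in both (1, Pla2g7, whose own call was lost under 7 of 18 alternatives) numbered 0 at a minimum of 3 UMIs, 8 at 6, 12 at 10, 16 at 10% and 0 at 40% mitochondrial UMIs. They numbered 3 with Kupffer genes at 0.5%, 5 with erythroid and granule sums of 0, 0 with erythroid sums up to 5, 2 without the deepest 5% of cells, 3 against depth-matched cells, 32 at 10 CPM and 10 UMIs, 5 with cells weighted equally and 2 without shared sequences. The spindle medians (4.94 and 5.79) were 2.80 and 3.49 against depth-matched cells, and 3.88 in library 2 with cells weighted equally. Against the few depth-matched cells, counts of 0 replaced by 3 UMIs cap the ratios of rare genes, and depth was not separated from that cap. Among single genes, 6 values whose interval lay on 1 side of 0 took the other sign after rounding to 2 decimals: Hbb-bs in library 1 (−4.08, 4 UMIs) was 1.38 at a minimum of 3 UMIs. Marco in library 1 (0.37) was −1.08 at 10% mitochondrial UMIs and −0.69 with shallow shared barcodes kept. Ccr2 in library 1 (1.58) was −2.26 at 10% mitochondrial UMIs and −1.96 without the deepest 5% of cells, where its ratio between libraries (−4.17) was 0.27. Values near 0 or with an interval that included 0 are not among these 6. Of them Cdkn1a in library 2 (0.47) was −0.49 against depth-matched cells, and Ccr2 in library 2 (0.42) ranged down to −0.84. The cause was not tested. Gene results could not be computed with Kupffer genes at 2% of UMIs, which left 0 proliferating cells. The erythroid sum of up to 5 UMIs, the depth of 7000 UMIs and the removal of shared sequences were chosen after seeing the data. No paired analysis was possible because each genotype had 1 mouse, so the groups share fewer than 2 replicate numbers. Depth limits genes under about 30 UMIs in proliferating cells, for which a 2-fold difference can lie within counting error.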
